A study of Mus musculus with 4 samples.

Results

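The data described here are the levels of 10 microglial genes, most of them for surface or secreted proteins. These genes, commonly read as signs of the resting, homeostatic condition of microglia, are Cx3cr1, Tmem119, Selplg, Gpr34, Fcrls, Olfml3, Sparc, Cst3, Crybb1 and Ltc4s. They were chosen by gene symbol from the 32285 genes of the count matrices, and all 10 were among the 13853 genes that passed the filter on low counts in microglia. The study asked how the arginine methyltransferase PRMT1 shapes microglia during demyelination, by single-cell RNA sequencing of CD11b+ CD45+ cells that were sorted from the brains of single mice. The 4 libraries came from 2 PRMT1FL mice and 2 PRMT1Cx3cr1-KO mice on the C57BL/6 background, 1 mouse a library, numbered 1 and 2 within each genotype. Both groups carried floxed Prmt1 alleles and were injected with tamoxifen, and only the PRMT1Cx3cr1-KO mice also carried the Cx3cr1CreERT driver, a tamoxifen-dependent recombinase placed in the Cx3cr1 gene. All mice ate a diet with 0.2% cuprizone, a copper chelator that kills oligodendrocytes, for 5 wk. The sample labels give an age of 5 to 6 wk at the start of the diet, whereas the methods of the study place the tamoxifen injections at that age and the diet after them. The labels describe the genotype of the PRMT1FL mice as wild type. There was no library from mice on a normal diet or from PRMT1FL mice with the driver. For Cx3cr1, whose gene holds the driver, and for every other gene, the loss of PRMT1 and the driver allele therefore cannot be told apart. The number of driver alleles per mouse was not given in the sources used here.

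In the healthy brain, microglia sense their surroundings through receptors such as Cx3cr1, which binds the neuronal chemokine fractalkine, and Gpr34, which binds lysophosphatidylserine. They also carry surface proteins such as Tmem119, a membrane protein used to tell microglia from other macrophages, Selplg, the ligand of P-selectin, and Fcrls, an Fc receptor-like protein. They release Sparc, a matrix protein, Olfml3, an olfactomedin-domain glycoprotein, and Cst3 (cystatin C), an inhibitor of cysteine proteases, while Ltc4s makes leukotriene C4 inside the cell and Crybb1 encodes a crystallin best known from the lens. Near plaques and demyelinated lesions, microglia typically lower many of these genes and raise activation genes such as Apoe, Itgax and Cst7.

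Each library held 76943248 to 99559644 unique molecular identifiers (UMIs, each standing for 1 captured RNA molecule) in 8284 to 11554 cell barcodes, of which 7819 to 10982 passed the filters and fell into microglial clusters. Median depth was 6233.5 to 7080 UMIs per microglial cell, so the 2 genotypes were close in depth. Prmt1 itself was at 93.4 and 86.1 CPM (UMIs of a gene scaled to a fixed total per library) in PRMT1FL microglia and at 69.8 and 67.6 CPM in PRMT1Cx3cr1-KO microglia, a log2 fold change of -0.39 that missed the threshold (edgeR adjusted p = 0.0764), and it is not known from the sources used here whether the counted 3′ end lies in the floxed stretch. Any pair of libraries shared 31 to 46 cell barcodes. Summed erythroid markers were at 242 and 93.9 CPM in the PRMT1FL microglia against 0.0612 and 0.0212 CPM in the PRMT1Cx3cr1-KO microglia, and 4 of the 5 were called lower. Summed markers of astrocytes were at 43.1 to 65.0 CPM in all 4 mice and those of T or NK cells at no more than 0.0822 CPM. A cluster led by Ms4a7 and Clec12a, counted here among the microglia, held 425 cells of PRMT1Cx3cr1-KO mouse 2 and 11 to 62 cells of the other mice. Whether these cells were microglia was not tested. Summed MHC-associated microglial markers were at 2911 and 3316 CPM in PRMT1FL mice and at 2027 and 1141 CPM in knockout mice, and summed proliferation markers at 310 and 316 CPM against 414 and 589 CPM. The part of these markers in the results was not tested, and the results with and without the Ms4a7/Clec12a cells are given below.

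When all microglia of a mouse were summed, Cx3cr1 was the single gene of the 10 that passed the edgeR test, and it fell. Cx3cr1 stood at 1481 CPM in PRMT1FL mouse 1, 1582 CPM in PRMT1FL mouse 2, 842 CPM in PRMT1Cx3cr1-KO mouse 1 and 801 CPM in PRMT1Cx3cr1-KO mouse 2. The groups did not overlap, and the level in the knockout was 0.536 times that in PRMT1FL mice (log2 fold change -0.90, SE 0.08, n = 2 against 2, edgeR adjusted p = 0.0223). This call, 1 of 10 genes, compares with 0.621% of all genes tested (86 of 13853). Without the Ms4a7/Clec12a cells the log2 fold change was again -0.90, and Cx3cr1 was again the single gene of the 10 called. The call was lost without either PRMT1FL mouse, where the log2 fold change was -0.95 without mouse 1 and -0.85 without mouse 2. Few of all genes were called in those fits, as given in the last section. Without knockout mouse 1 the log2 fold change was -0.93 and without knockout mouse 2 it was -0.86. In sums over cells, fewer cells with a gene and less RNA of it per cell cannot be told apart, and the shares of cells are given below. On build GRCm38 (GENCODE M21) Cx3cr1 lies at chr9:119901616-120069879 on the minus strand. This annotated span overlaps Gorasp1, Csrnp1 and Xirp1 on the same strand, so some reads could match several of these genes.

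The 4 other surface genes did not pass the test. Tmem119 was at 337 and 394 CPM in the PRMT1FL mice and at 406 and 416 CPM in the knockout mice, with a log2 fold change of 0.17 (edgeR adjusted p = 0.355). Gpr34 was at 501 and 516 CPM against 563 and 555 CPM, with a log2 fold change of 0.14 (edgeR adjusted p = 0.317). Both were slightly higher in both knockout mice than in either PRMT1FL mouse. Selplg, at 731 and 812 CPM against 747 and 722 CPM, and Fcrls, at 2056 and 2089 CPM against 1942 and 2150 CPM, overlapped between the genotypes, with log2 fold changes of -0.07 and -0.02. Tmem119 (chr5:113793729-113800516, minus strand) and Selplg (chr5:113818536-113832644, minus strand) lie close together on the same chromosome. Gpr34 (chrX:13632089-13640858, plus strand) lies inside Cask, which is on the opposite strand.

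Among the secreted products, Cst3 showed the largest difference. Cst3 was at 13895 CPM in PRMT1FL mouse 1, 16167 CPM in PRMT1FL mouse 2, 11256 CPM in knockout mouse 1 and 10247 CPM in knockout mouse 2. Both knockout mice were below both PRMT1FL mice, yet PRMT1FL mouse 1 lay nearly as far from PRMT1FL mouse 2 as from knockout mouse 1, and the log2 fold change of -0.48 (SE 0.12) missed the threshold (edgeR adjusted p = 0.113). Sparc was also lower in both knockout mice, at 2529 and 2339 CPM against 2772 and 2845 CPM, with a log2 fold change of -0.21 (edgeR adjusted p = 0.252). Olfml3 was at 1206 and 1278 CPM in PRMT1FL mice and at 1237 and 1469 CPM in knockout mice, so the groups overlapped.

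Crybb1 went the other way. It was at 61.9 and 65.0 CPM in PRMT1FL microglia and at 92.2 and 81.0 CPM in knockout microglia, 1.36 times as high, and the groups did not overlap, although the log2 fold change of 0.45 (SE 0.08) missed the threshold (edgeR adjusted p = 0.0795). Ltc4s was at 416 and 465 CPM against 454 and 472 CPM and overlapped. In all, 3 of the 10 genes (Cx3cr1, Sparc and Cst3) were lower in both knockout mice, against 27.6% of all genes, and 3 (Tmem119, Gpr34 and Crybb1) were higher in both, against 26.2%. The median log2 fold change of the 10 was 0.03 and that of all genes tested was -0.00. DESeq2, which called 5.29% of all genes, called Cx3cr1, Cst3 and Crybb1.

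**Figure D1:**
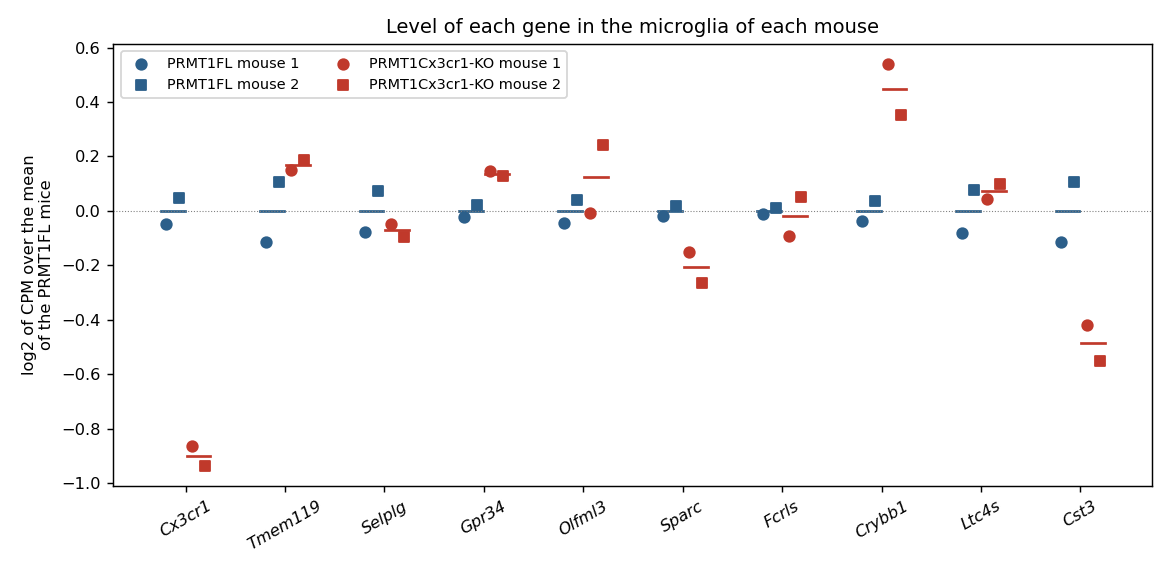
Log2 of the CPM of each of the 10 genes (x axis) in the microglia of each mouse over the mean of the PRMT1FL mice (y axis), with PRMT1FL mice in blue, PRMT1Cx3cr1-KO mice in red, circles for mouse 1, squares for mouse 2 and short lines for the group means. The 2 knockout mice are far below the PRMT1FL mice for Cx3cr1 (842 and 801 against 1481 and 1582 CPM), lower for Cst3 and above them for Crybb1.

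Detection was read as the share of microglia with at least 1 UMI of a gene. To set cells of different depth on one footing, each cell was thinned at random to 2000 UMIs, which left out 586 to 1041 shallower microglia per mouse. After thinning, Cx3cr1 was detected in 85.6% of 10028 cells of PRMT1FL mouse 1 (95% Wilson interval 84.9 to 86.3%), in 86.9% of 7233 cells of mouse 2, in 72.5% of 9150 cells of knockout mouse 1 (71.6 to 73.5%) and in 71.7% of 9754 cells of knockout mouse 2. The knockout mice thus lay 14.2 percentage points lower on average. Without thinning the shares were 92.7, 94.3, 88.7 and 89.0%, a difference of 4.67 points. These intervals cover counting error only. With 2 mice a genotype, an exact two-sided permutation test over mice cannot give a p below 0.333. A thinned cell held on average 3.24 (PRMT1FL mouse 1) or 3.55 (PRMT1FL mouse 2) Cx3cr1 UMIs, against 1.77 and 1.74 in the knockout mice, so the gene was still detected in most knockout microglia, at a lower count per cell.

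Tmem119 was detected in 39.7 and 44.1% of thinned PRMT1FL cells and in 46.3 and 51.7% of thinned knockout cells. Crybb1, the least detected of the 10, was found in 11.7 and 11.8% against 15.6 and 14.5%. Cst3 was detected in at least 99.9% of thinned cells in every mouse, a share too close to its limit to show a difference. For the 9 genes other than Cx3cr1 the median difference was 3.04 points. The median microglial cell held 7 of the 10 genes in each of the 4 mice.

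As a gauge of free RNA, the same shares were taken in cells that should lack most of these genes. In thinned astrocyte-like cells (median 2870 to 3353 UMIs before thinning, against 6818 to 7666 in microglia) of the PRMT1FL mice, Cx3cr1 was detected in 11.9% of 126 and 10.5% of 95 cells and Tmem119 in 4.76 and 3.16%. Knockout mice had only 16 and 15 such cells, with Cx3cr1 in 12.5 and 40.0%. The microglial shares of Cx3cr1 were well above these in each mouse, and those of Tmem119 in the PRMT1FL mice. In plain sums, astrocyte-like cells held 61.7 and 46.9 CPM of Tmem119 in PRMT1FL mice and 58.7 and 205 CPM in knockout mice. Knockout microglia held 409 and 435 CPM of it by the same measure. Sparc (80.0 to 87.5%) and Cst3 (96.8 to 100%) were also common in astrocyte-like cells, which express them themselves, so for these genes that cell type gives no background, and in the thinned neutrophil-like cells, present in the PRMT1FL libraries only, Cst3 was detected in 86.7% of 15 and 84.8% of 33 cells.

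**Figure D2:**
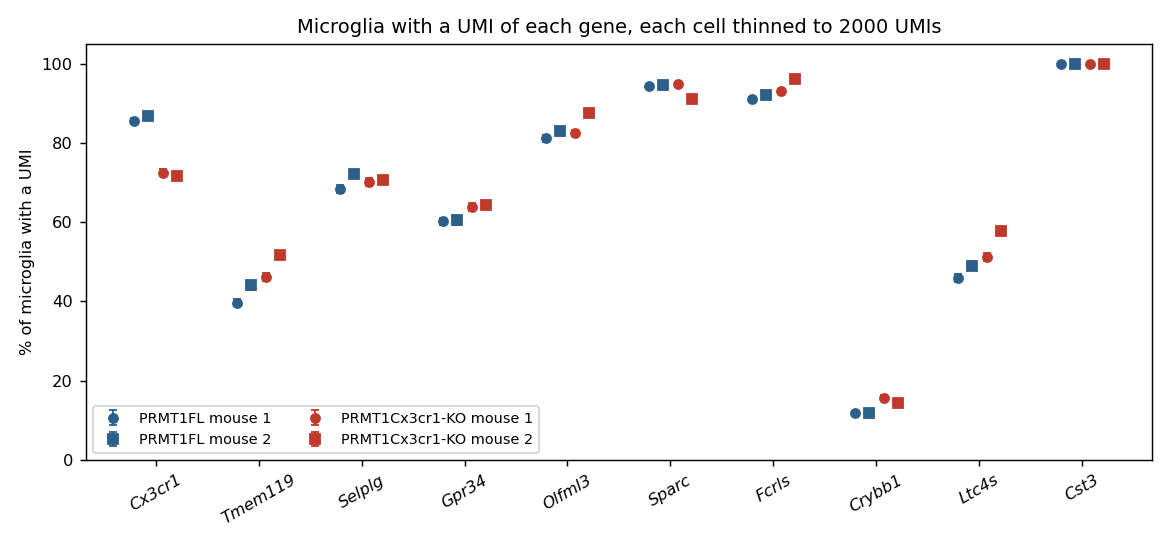
Percentage of microglia with at least 1 UMI of each gene (y axis) after thinning each cell to 2000 UMIs, by gene (x axis) and mouse, with 95% Wilson intervals that are mostly smaller than the symbols. The Cx3cr1 shares of the knockout mice (72.5 and 71.7%) lie below those of the PRMT1FL mice (85.6 and 86.9%), while those of Tmem119, Crybb1 and Ltc4s lie slightly above.

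Microglia were next split into states by clustering, and 7 states had at least 50 cells in every mouse. The 10 genes were left out of the clustering, as were 1534 genes set apart by a fit on sums over all cells. These had an edgeR adjusted p under 0.05 between the genotypes or a change of over 2-fold, whether or not it passed the test. They were named by their leading genes: Il7r/Gdf15, Cxcl2/Il1b, Gpnmb/Apoc1, Rsad2/Ifit3 (interferon-response genes), a haemoglobin-led state, and the cycling states Mki67/Cenpf and Ube2c/Pbk. The haemoglobin-led state took its name from the PRMT1FL cells, since erythroid markers were near 0 in knockout microglia (0.0612 and 0.0212 CPM), although 1379 and 1748 knockout cells fell into it. The Il7r/Gdf15 state, with 1827 to 2492 cells per mouse and a median of 3484 to 4044.5 UMIs per cell, was the homeostatic-like one: 4 of 7 homeostatic markers outside the 10 genes were over 2-fold higher in it than in the other cells, and in no other microglial state was any of them. Gdf15, a cytokine induced by stress, was also among its leading genes. Since genes that move with the 10 took part in the clustering, their levels across states are given as a description, with no test.

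By this description 7 of the 10 genes were highest in the Il7r/Gdf15 state in the mean over the 4 mice and in the PRMT1FL mean, and 6 of them, all but Sparc, in the knockout mean. The mean over the 4 mice of Cx3cr1 was 2293 CPM there and 343 CPM in the haemoglobin-led state, the lowest, a ratio of 6.69. Over all 4 mice the 5 highest states of Cx3cr1 overlapped their neighbours in the ranking, and a gap that no mouse bridged came only below the Gpnmb/Apoc1 state. Within each genotype the Il7r/Gdf15 state stood clear of the next one, Cxcl2/Il1b (3020 and 3174 against 1421 and 1475 CPM in PRMT1FL mice, 1532 and 1445 against 818 and 837 CPM in knockout mice). Crybb1 had a similar ratio of 6.52, from 265 CPM in the Il7r/Gdf15 state to 40.6 CPM in the Gpnmb/Apoc1 state, and its values in the Il7r/Gdf15 state (211 to 335 CPM) did not overlap those of the next state (50.8 to 76.1 CPM). For Tmem119, Selplg, Gpr34 and Cst3 the ratio was between 2.55 and 2.84, and for each of them the Il7r/Gdf15 values of all 4 mice lay above those of the next state.

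Sparc was highest in this state in the mean over the 4 mice, at 2806 CPM, but its values overlapped those of the next state and its ratio was only 1.44. Its place differed by genotype: the Il7r/Gdf15 state was the highest in PRMT1FL mice (mean 3310.5 CPM), whereas in knockout mice its mean of 2302 CPM was below that of 4 other states, led by Gpnmb/Apoc1 at 2698 CPM. Fcrls went against its homeostatic label: in PRMT1FL mice it was lowest in the Il7r/Gdf15 state, at a mean of 1504 CPM, and highest in the Mki67/Cenpf state, at 2331 CPM. In knockout mice it was lowest in the Rsad2/Ifit3 state, at 1778 CPM, with the Il7r/Gdf15 state next at 1947 CPM, and highest in the haemoglobin-led state, at 2222 CPM. In both genotypes Olfml3 was highest in the Mki67/Cenpf state (1574 CPM over the 4 mice) and Ltc4s in the haemoglobin-led state (614 CPM). Of the Mki67/Cenpf cells 20.7 to 24.8% per mouse were marked as doublets, at medians of 12112.5 to 15700.5 UMIs. Of the haemoglobin-led cells at most 0.0506% were, at medians of 3798 to 4784 UMIs. The part of doublets and depth in the order of the states was not tested.

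**Figure D3:**
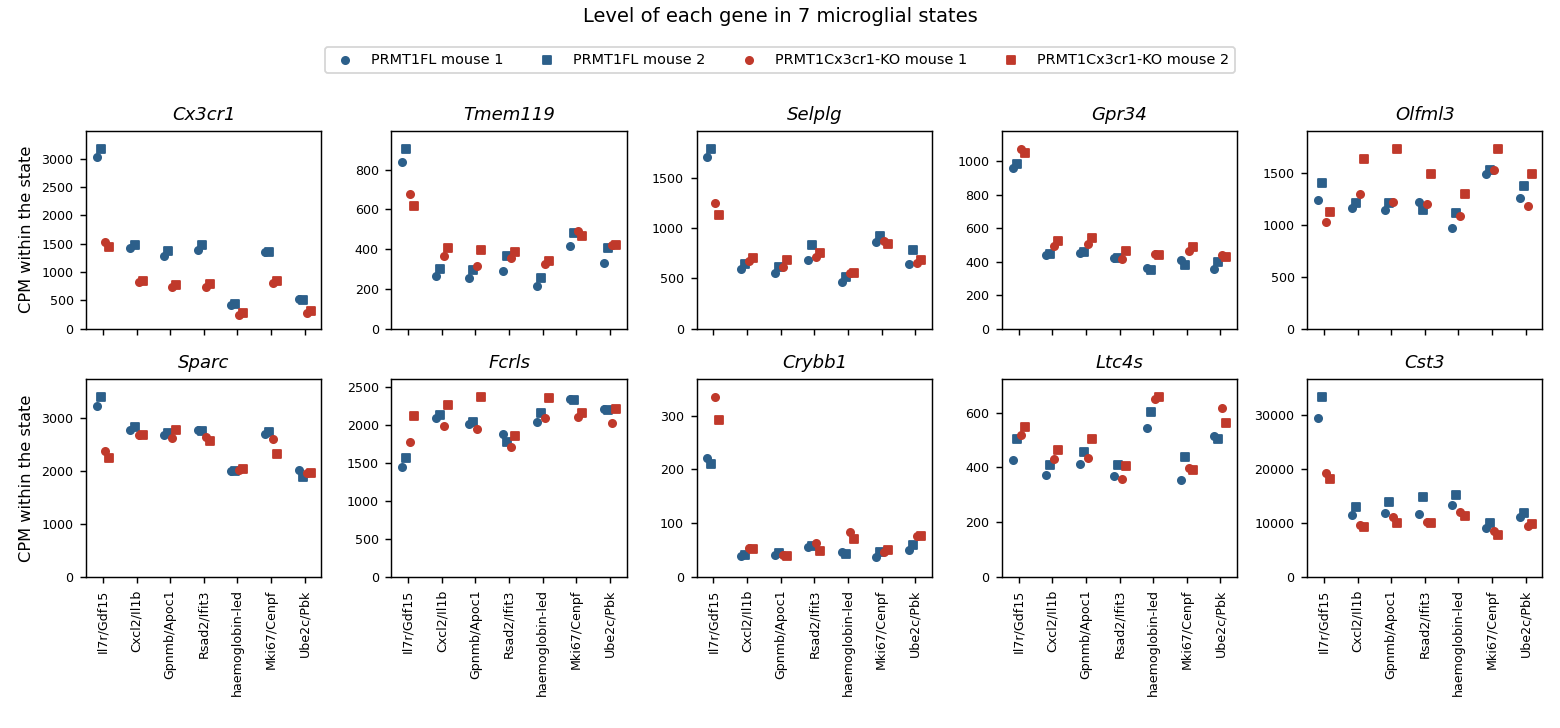
CPM of each gene within each of 7 microglial states (y axis from 0, a scale for each gene) by state (x axis), with 1 point a mouse, PRMT1FL in blue and PRMT1Cx3cr1-KO in red. Cx3cr1, Tmem119, Selplg, Gpr34, Crybb1 and Cst3 peak in the Il7r/Gdf15 state, whereas Fcrls is low there (lowest of the states in PRMT1FL mice, mean 1504 CPM) and Olfml3 and Ltc4s are highest elsewhere.

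Within each state the genotypes were compared on sums per mouse. Cx3cr1 fell in 7 of 7 states, with log2 fold changes from -1.07 to -0.75. In the Il7r/Gdf15 state it was at 3020 and 3174 CPM in PRMT1FL mice and at 1532 and 1445 CPM in knockout mice (log2 fold change -1.07, edgeR adjusted p = 7.9e-05). In the Mki67/Cenpf state, where the difference was smallest, it was at 1354 and 1346 CPM against 800 and 840 CPM (log2 fold change -0.75, edgeR adjusted p = 0.00129). The groups did not overlap in any of the 7 states. Without PRMT1FL mouse 1 the log2 fold changes ran from -1.12 (Il7r/Gdf15) to -0.75 (Mki67/Cenpf). Without PRMT1FL mouse 2 they ran from -1.03 to -0.76 in the same states. Not every state kept the call in these fits, and the share of all genes called in them is not given here.

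Cst3 was the other gene that was lower in both knockout mice than in both PRMT1FL mice in each of the 7 states, a pattern shared by 1.07% of the 7256 genes tested in all 7. Its log2 fold changes ran from -0.76 to -0.24, and it was called in the Il7r/Gdf15 and Rsad2/Ifit3 states. In the Rsad2/Ifit3 state Cst3 was at 11708 and 14799 CPM against 10113 and 9968 CPM (log2 fold change -0.43, edgeR adjusted p = 0.0103, 1.04% of all genes called there).

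The Il7r/Gdf15 state held most of the other calls. There 8 of the 10 genes were called, against 18.4% of the 11668 genes tested in that state, 6 of them lower and 2 higher in the knockout mice. Cst3 was at 29444 and 33378 CPM in PRMT1FL mice and at 19233 and 18183 CPM in knockout mice (log2 fold change -0.76, edgeR adjusted p = 0.00141). Selplg was at 1716 and 1795 CPM against 1257 and 1131 CPM (log2 fold change -0.57, edgeR adjusted p = 0.00299). Sparc was at 3227 and 3394 CPM against 2366 and 2238 CPM (log2 fold change -0.54, edgeR adjusted p = 0.00348). For these 3 genes the 2 mice of a genotype were close and the groups far apart.

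Tmem119 fell from 838 and 905 CPM to 679 and 619 CPM in this state (log2 fold change -0.44, edgeR adjusted p = 0.00988), whereas over all microglia its log2 fold change was 0.17 and did not pass the test. Olfml3 was at 1246 and 1405 CPM against 1032 and 1126 CPM (log2 fold change -0.31, edgeR adjusted p = 0.0453). The 2 genes that rose were Crybb1, from 221 and 211 CPM to 335 and 292 CPM (log2 fold change 0.52, edgeR adjusted p = 0.0044), and Fcrls, from 1443 and 1565 CPM to 1775 and 2119 CPM (log2 fold change 0.36, edgeR adjusted p = 0.0371). In none of these 4 genes did the groups overlap. In all, 6 of the 10 genes were lower in both knockout mice there, against 29.4% of all genes, and 4 were higher in both, against 31.7%.

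Gpr34 (959 and 986 CPM against 1076 and 1049 CPM, edgeR adjusted p = 0.399) and Ltc4s (426 and 503 CPM against 519 and 548 CPM, edgeR adjusted p = 0.225) did not pass the test there. When each mouse was left out in turn, the log2 fold changes of the 8 called genes in the Il7r/Gdf15 state kept their signs. They ran from -0.52 to -0.35 for Tmem119, from -0.41 to -0.22 for Olfml3 and from 0.24 to 0.47 for Fcrls. Not all 8 calls were kept in these fits. The share of all genes called in them is not given here. In the haemoglobin-led state, where 2.62% of all genes were called and the knockout cells nearly lacked the erythroid RNA of its name, Crybb1 rose from 46.3 and 41.7 CPM to 82.9 and 71.1 CPM (log2 fold change 0.69, edgeR adjusted p = 0.00379) and Tmem119 rose from 213 and 255 CPM to 324 and 341 CPM (log2 fold change 0.40, edgeR adjusted p = 0.0312). In the other 4 states Cx3cr1 was the single gene of the 10 that was called, where 0.0502% (Gpnmb/Apoc1), 0.626% (Mki67/Cenpf), 0.85% (Cxcl2/Il1b) and 0.93% (Ube2c/Pbk) of all genes were called.

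**Figure D4:**
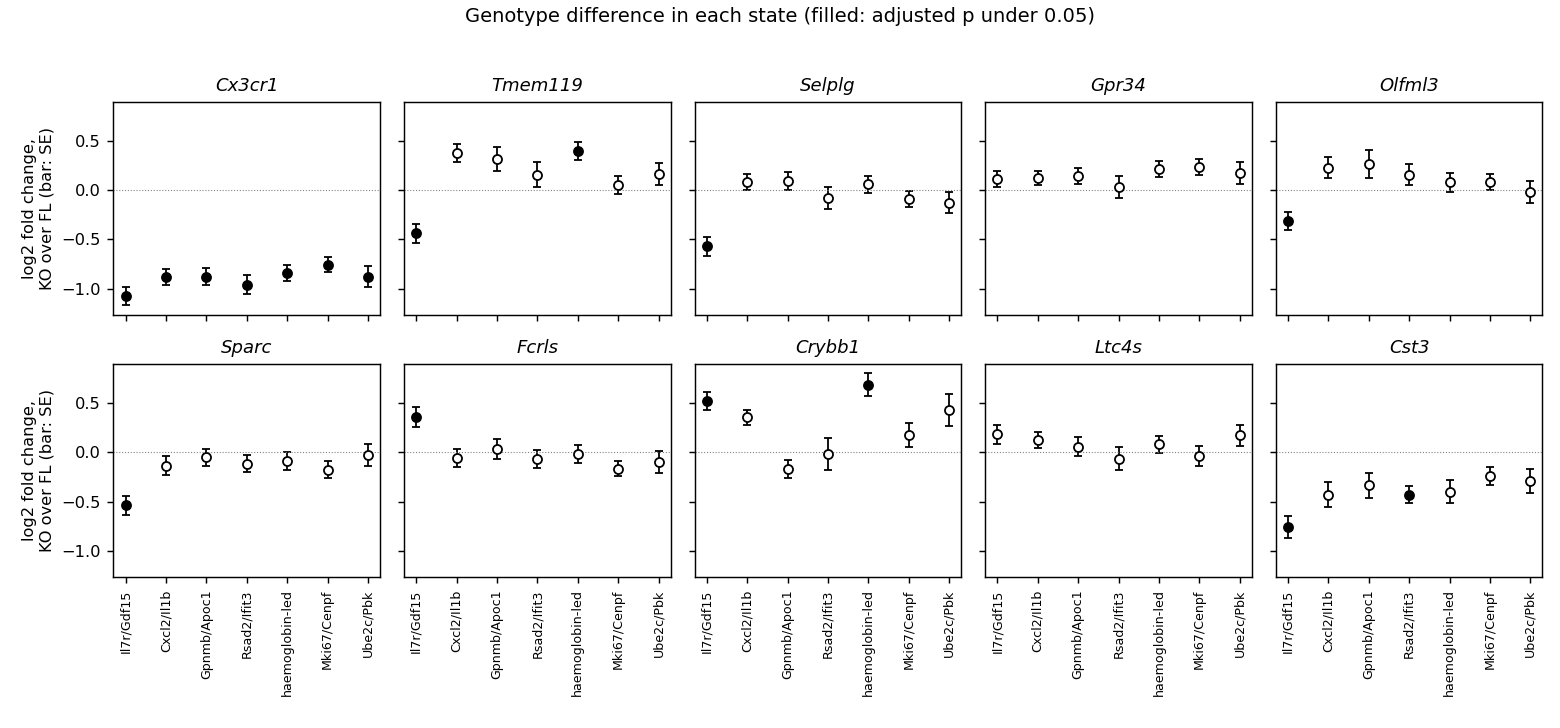
Log2 fold change of PRMT1Cx3cr1-KO over PRMT1FL mice (y axis, bars for the SE, 2 mice a genotype) for each gene in each of 7 microglial states (x axis), with filled circles for an edgeR adjusted p under 0.05. Cx3cr1 is below 0 and filled throughout, and Tmem119, Selplg, Olfml3, Sparc and Cst3 are lowest in the Il7r/Gdf15 state.

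Whether the genotype difference itself depended on the state was tested with limma, as the difference in the Il7r/Gdf15 state minus the mean of those in the other 6 states. It differed for 7 of the 10 genes, against 5.8% of the 12238 genes tested. Tmem119 (-0.68 on the log2 scale, limma adjusted p = 6.45e-05), Selplg (-0.56, limma adjusted p = 1.26e-05) and Sparc (-0.43, limma adjusted p = 1.26e-05) were relatively lower in the knockout in this state than elsewhere, as were Olfml3 (-0.43), Cst3 (-0.40) and Cx3cr1 (-0.20). Fcrls was relatively higher (0.43, limma adjusted p = 0.000403). For Crybb1, Gpr34 and Ltc4s the differences were 0.28, -0.03 and 0.14 and did not pass the test. The same test for each of the 7 states, which called 1.01% of all tests, gave 1 more call, Crybb1 in the Gpnmb/Apoc1 state (-0.53, limma adjusted p = 0.00794, where 0.139% of genes were called). Not all of these 8 calls were kept without PRMT1FL mouse 1. The share of all tests called in that fit is not given here.

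The clusters that divided the Il7r/Gdf15 state were uneven between the genotypes. They were 3 clusters of all cells at a higher resolution, chosen after these results were seen. Each was taken whole, with any cells from outside the state. The first was led by Il7r and Crybb1 (965 to 1347 cells per mouse). The next was led by Hspa1b and Klf2 (937 and 679 cells in PRMT1FL mice against 542 and 346 in knockout mice). The last was led by Gdf15 and Tnfaip2 (197 and 145 cells against 858 and 791). In the Il7r/Crybb1 cluster 7 of the 10 genes were called (17.8% of all genes), and in the Gdf15/Tnfaip2 cluster 6 (5.79% of all genes). In the Hspa1b/Klf2 cluster only Cx3cr1 and Crybb1 were called (1.1% of all genes). Tmem119 showed the contrast: it was at 1418 and 1501 CPM against 1133 and 879 CPM in the Il7r/Crybb1 cluster (log2 fold change -0.53, edgeR adjusted p = 0.00587) and at 461 and 477 CPM against 501 and 494 CPM in the Hspa1b/Klf2 cluster (log2 fold change 0.08, edgeR adjusted p = 0.79). The part of these uneven cell numbers in the values of the whole state was not tested.

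Promoters of 7 of the 10 genes (250 bases before to 50 bases after the start site) were matched by symbol in RefSeq on build GRCm38.p6, and those of Tmem119, Selplg and Gpr34 were not. The 4 shown are those of Cx3cr1 and Cst3, which were lower in both knockout mice in every state, and of Fcrls and Crybb1, which rose in the Il7r/Gdf15 state. Each is read 5′ to 3′ along its gene, and capitals mark the motifs searched on both strands: GAGGAAG, a sequence of the kind bound by the myeloid factor PU.1, TATAAA (the TATA box) and CCAAT (the CCAAT box, ATTGG when it lies on the other strand), none of which overlap here. They lie at chr9:120068247-120068546 (Cx3cr1, minus strand), chr2:148875463-148875762 (Cst3, minus strand), chr3:87263475-87263774 (Fcrls, minus strand) and chr5:112255570-112255869 (Crybb1, plus strand).
Cx3cr1: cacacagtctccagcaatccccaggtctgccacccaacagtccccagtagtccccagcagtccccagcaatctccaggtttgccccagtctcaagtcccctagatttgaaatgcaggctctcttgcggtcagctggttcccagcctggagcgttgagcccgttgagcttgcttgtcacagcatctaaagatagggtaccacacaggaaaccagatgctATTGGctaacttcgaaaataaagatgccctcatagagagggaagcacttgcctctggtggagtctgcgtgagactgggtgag
Cst3: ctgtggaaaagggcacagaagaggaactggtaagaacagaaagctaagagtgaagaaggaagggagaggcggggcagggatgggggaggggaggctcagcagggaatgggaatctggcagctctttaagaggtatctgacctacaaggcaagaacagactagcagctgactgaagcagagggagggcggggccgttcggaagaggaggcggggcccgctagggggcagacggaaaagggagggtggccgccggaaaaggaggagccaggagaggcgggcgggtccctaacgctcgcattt
Fcrls: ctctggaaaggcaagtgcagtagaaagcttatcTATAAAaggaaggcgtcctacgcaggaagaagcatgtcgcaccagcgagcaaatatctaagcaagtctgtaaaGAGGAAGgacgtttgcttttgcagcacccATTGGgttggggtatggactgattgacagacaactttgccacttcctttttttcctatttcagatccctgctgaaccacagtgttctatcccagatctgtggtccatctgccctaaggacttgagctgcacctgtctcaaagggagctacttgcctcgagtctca
Crybb1: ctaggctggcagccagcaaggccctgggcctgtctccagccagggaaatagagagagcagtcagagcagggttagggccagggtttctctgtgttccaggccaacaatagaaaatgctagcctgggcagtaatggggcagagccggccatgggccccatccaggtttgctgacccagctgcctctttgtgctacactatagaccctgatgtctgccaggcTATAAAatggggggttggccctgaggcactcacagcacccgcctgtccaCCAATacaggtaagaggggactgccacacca
Counting from base 1 at the start site, the Cx3cr1 promoter held 1 CCAAT match on the opposite strand at bases -32 to -28, and the Cst3 promoter held none of the 3 motifs. The Fcrls promoter held all 3, with GAGGAAG at bases -144 to -138, TATAAA at bases -217 to -212 and CCAAT on the opposite strand at bases -115 to -111. The Crybb1 promoter held TATAAA at bases -30 to -25 and CCAAT at bases 20 to 24. Among all 32851 promoters of the same length, GAGGAAG was found in 13.6%, TATAAA in 13.6% and CCAAT in 37.4%.

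To compare cells along a count of activation genes, microglia of each mouse were thinned to 2000 UMIs. They were ranked by their summed UMIs of 22 activation genes and cut into 4 bins of equal size. Apoe and Ctsd had the highest CPM of the 22 (38522 and 21512 CPM in PRMT1FL mouse 1) and so weighed most in this sum. Over all microglia 19 of the 22 genes were lower in the knockout, so a like count need not mean a like level of activation. The median activation count was 61 to 85 UMIs in the lowest bin and 250 to 263 UMIs in the highest. The lowest bins were not matched between the genotypes, with medians of 73 and 61 UMIs in PRMT1FL mice and 82 and 85 UMIs in knockout mice, and the part of this gap in the values of the lowest bin was not tested. Cx3cr1 was lower in the knockout in all 4 bins, by log2 differences of -1.18, -0.83, -0.77 and -0.81 from the lowest to the highest. In the lowest bin it was at 2739 and 3062 CPM in PRMT1FL mice and at 1320 and 1247 CPM in knockout mice. Cst3 was likewise lower in all 4, by -0.88, -0.41, -0.26 and -0.22.

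For Tmem119 the sign turned along the ranking. In the lowest bin it was at 868 and 996 CPM in PRMT1FL mice and at 729 and 642 CPM in knockout mice. In the highest bin it was at 121 and 162 CPM in PRMT1FL mice and at 204 and 321 CPM in knockout mice. The groups did not overlap in either bin, and the log2 differences were -0.44, 0.30, 0.48 and 0.89. From the lowest to the highest bin Tmem119 changed by -2.85 and -2.62 on the log2 scale in PRMT1FL mice. In knockout mice it changed by -1.84 and -1.003, a smaller change between these bins.

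The change between the outer bins was also smaller in the knockout for 8 of the other 9 genes. The share of all genes with a smaller change was not computed. Activation counts of the lowest bin were higher in the knockout mice, and those of the highest bin were close. The outer bins thus lay nearer together in activation count in the knockout. The part of this in the smaller changes, that of Tmem119 included, was not tested. Crybb1 differed between the outer bins by -3.94 and -3.69 in PRMT1FL mice and by -2.90 and -2.28 in knockout mice. Selplg differed by -1.82 and -1.82 against -1.32 and -1.08, and Cst3 by -1.12 and -1.24 against -0.58 and -0.46. Fcrls was the exception, with 0.26 and 0.27 against 0.04 and 0.31. Its group mean was a little higher in the knockout in every bin (by 0.09 to 0.29), but the genotypes overlapped in all bins except the lowest. In bin 3 knockout mouse 1 was at 2041 CPM, below both PRMT1FL mice (2065 and 2072 CPM), and knockout mouse 2 was at 2374 CPM. No test was made on the values by bin.

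**Figure D5:**
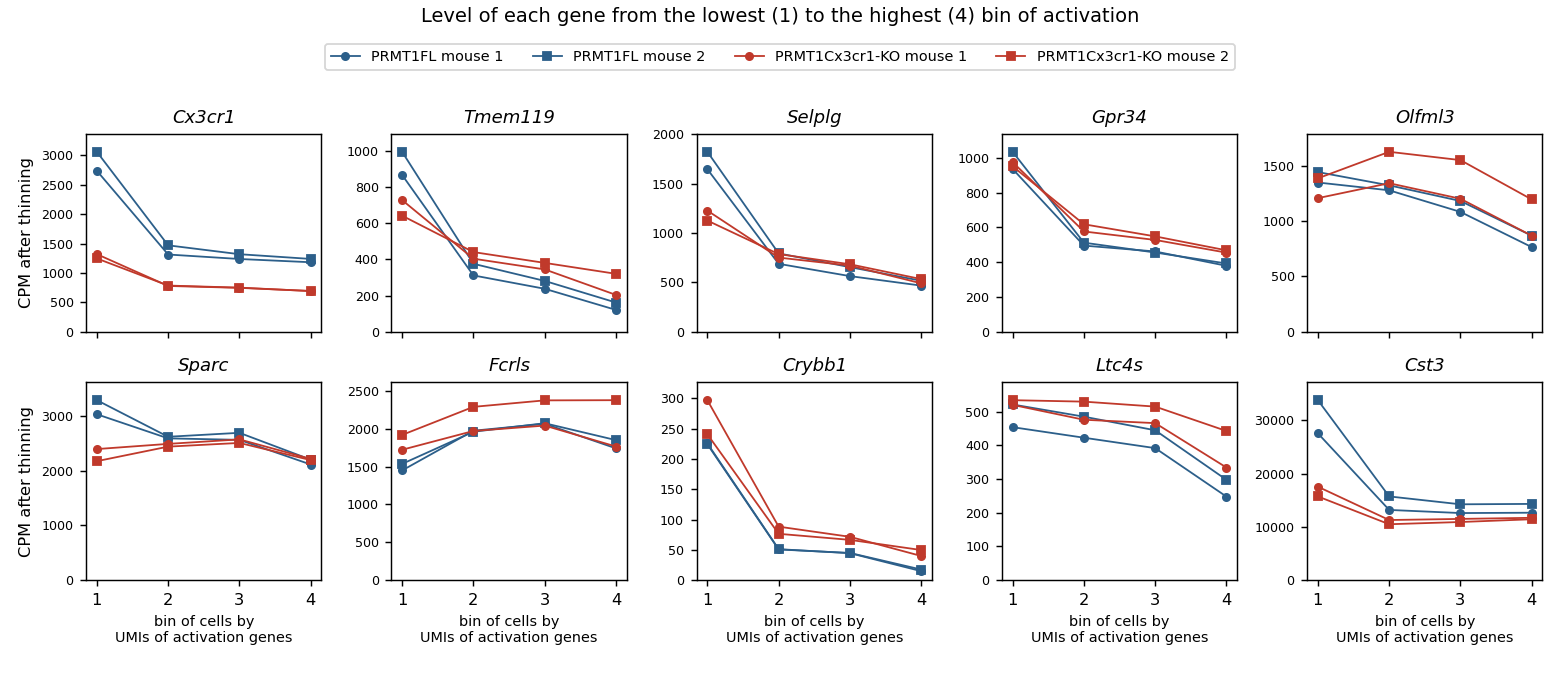
CPM of each gene after thinning (y axis from 0, a scale for each gene) in the bins of microglia from the lowest (1) to the highest (4) count of activation genes (x axis), with 1 line a mouse, PRMT1FL in blue and PRMT1Cx3cr1-KO in red. The lines of Tmem119 cross, from 868 and 996 against 729 and 642 CPM in bin 1 to 121 and 162 against 204 and 321 CPM in bin 4, and those of Cx3cr1 stay apart throughout.

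Border-associated macrophage-like cells, which the same sort collected and which also use Cx3cr1, were compared in the same way, with 73 to 106 cells per mouse. Of these cells 16.7 to 29.4% per mouse were marked as doublets, and they held 223 to 340 CPM of Tmem119 and 1711 to 2000.3 CPM of Fcrls, genes that are used as microglial markers. The part of microglial RNA in the values of these droplets, the Crybb1 call included, was not tested. Cx3cr1 was at 1303 and 1490 CPM in PRMT1FL mice and at 871 and 1066 CPM in knockout mice (log2 fold change -0.53, edgeR adjusted p = 0.0522). Crybb1 rose there from 33.0 and 50.4 CPM to 112 and 94.6 CPM (log2 fold change 1.24, edgeR adjusted p = 0.0054), the single call among the 10 genes, against 0.862% of all genes. Cst3, at 9284 and 12283 CPM against 10542 and 10916 CPM, overlapped between the genotypes in these cells.

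Genes known to work with or beside the 10 were read from 4 lists. Of 24 other homeostatic genes, all tested, 1 was called (edgeR): Siglech, a microglial lectin, fell from 426 and 446 CPM to 289 and 261 CPM (log2 fold change -0.66, edgeR adjusted p = 0.0364). The median log2 fold change of this list was -0.12, with 8 genes higher and 16 lower, against 6806 higher and 7047 lower of all genes tested. Upk1b (log2 fold change -0.96, edgeR adjusted p = 0.0562), a uroplakin, and Entpd1 (log2 fold change -0.46, edgeR adjusted p = 0.0989), an ectonucleotidase, had values in the same direction that did not pass. P2ry12, the highest of the list, went the other way, from 414 and 474 CPM to 534 and 558 CPM (log2 fold change 0.30, edgeR adjusted p = 0.15). An unadjusted edgeR p under 0.05 was found for 10 of the 24, against 2736 of all 13853 genes tested. DESeq2 called 5 of them, 4 lower, against 5.29% of all genes.

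Of 23 activation genes, 22 were tested and 1 was not analysed here. With edgeR 0 were called, and 14 had an unadjusted p under 0.05, against 2736 of all 13853 genes tested. DESeq2 called 10, against 5.29% of all genes. Their median log2 fold change was -0.23, with 3 higher and 19 lower, and the widest values were those of Itgax (-1.55), an integrin, Cst7 (-0.73), a relative of Cst3, and Axl (-0.56), a receptor for dying cells. Cst7 was at 1812 and 1728 CPM in PRMT1FL mice and at 1173 and 957 CPM in knockout mice.

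Ligands, enzymes and proteases that work with the 10 genes gave no edgeR call among 19 of 26 tested. DESeq2 called 5 of the 19, against 5.29% of all genes. Of the 19, 9 had an unadjusted p under 0.05, against 2736 of all 13853 genes tested. Alox5 and Alox5ap, which act upstream of Ltc4s in leukotriene synthesis, were higher in both knockout mice: Alox5ap was at 147 and 166 CPM against 203 and 267 CPM (log2 fold change 0.59, edgeR adjusted p = 0.102) and Alox5 had a log2 fold change of 0.58 (edgeR adjusted p = 0.087). Sparcl1, the relative of Sparc, was at 0.660 to 1.59 CPM in microglia. Cx3cl1, the ligand of Cx3cr1, had 0 to 3 UMIs in the microglia of a mouse, and the selectins Selp and Sele had 0 UMIs in all 4. Of 12 genes induced by tissue dissociation 0 were called with edgeR and DESeq2 called 1, against the same 5.29% of all genes. An unadjusted p under 0.05 was found for 2 of the 12, against the same 2736 of 13853 genes. The widest values were those of Hspa1b (-0.70), Dusp1 (0.32) and Hspa1a (-0.32).

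Across the 7 states the 10 genes did not follow 1 profile. Pearson's r with their mean standardized profile was 0.95 for Selplg and Gpr34, 0.94 for Tmem119, 0.83 for Crybb1, 0.78 for Cx3cr1 and 0.74 for Cst3, but 0.51 for Sparc, 0.04 for Olfml3, -0.10 for Ltc4s and -0.60 for Fcrls. The genes most like that mean profile, among those at 50 CPM or more, were St3gal5 (r = 0.99), Lgmn (0.99), Sla (0.98), Tspan14 (0.98) and Susd3 (0.98). Those most like Cx3cr1 alone were Srrm2 (r = 0.9998), Nrip1 (0.9992) and Srsf5 (0.9992). These correlations run over 7 states that come from the same 4 libraries and differ in depth, and are a description with no test.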

How the data were processed

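Microglia sorted from 4 mice (2 PRMT1FL, 2 PRMT1Cx3cr1-KO) were profiled by droplet single-cell 3′ RNA sequencing. The authors deposited raw UMI counts per gene and cell barcode, 1 matrix a mouse, and the submitters' processing notes name Cell Ranger 3.1.0, mm10, Seurat 3.2.0 and Scanpy 1.5.2. The labels name a v2 kit. Groups were taken from the genotype label, and the labels do not say that a replicate number marks a shared litter, batch or day.

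Cells with 200 to 6000 genes and under 10% mitochondrial UMIs were kept (8170 to 11427 per mouse). They were clustered with scanpy 1.11.5 and leidenalg 0.10.2 (2000 variable genes, 20 principal components, resolution 0.4). The 10 genes and 1534 genes with an edgeR adjusted p under 0.05 or a change of over 2-fold between genotypes were left out. Clusters were named by leading genes and fixed markers. Doublets were marked per mouse (6.54 to 9.15% of cells) and removed only as an alternative. UMIs were summed per mouse over microglia or within a state and tested with edgeR 4.0.16 (quasi-likelihood, TMM factors, filterByExpr, R 4.3.3), with Benjamini-Hochberg adjustment over all genes tested and a threshold of 0.05. CPM over all microglia use TMM factors, and CPM within a state are plain. Differences between states were tested with limma 3.58.1 on log2 CPM, with the mouse as a block (consensus correlation 0.162). DESeq2 1.42.0 was an alternative. The edgeR and DESeq2 fits over all microglia and a limma contrast between states were run on simulated data. The counts simulated for the contrast held no effect of the mouse, so the block was not checked. Fits within a state, with a replicate block or without a mouse were not simulated.

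Precision over mice is limited by 2 mice a genotype. Intervals of shares (Wilson, scipy 1.17.1) cover counting error only. The 10 genes are named throughout, and from each list the genes called or, where fewer than 3 were, the 3 with the largest log2 fold change. P2ry12 was named besides, as the highest of its list. Genes most like the 10 are the 5 with the highest correlation, and for Cx3cr1 the 3 highest. The 10 genes and the lists were chosen with earlier results of these data known. Gene positions come from GENCODE M21, in which 32235 of 32285 identifiers matched, and promoters from RefSeq. The alternatives tried were DESeq2, upper-quartile factors, no filter on low counts, leaving out each mouse, a replicate block, doublets left out, a mitochondrial limit of 5%, all cells, clustering on all variable genes and a higher resolution. Without the Ms4a7/Clec12a cells, and the splits of the Il7r/Gdf15 state, were added after seeing the data.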

Additional observations from a re-analysis of the deposited data

Results flagged for a closer look

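The genotype difference of 8 gene and state pairs differed from its mean in the other states (limma, adjusted p under 0.05 over 85666 tests, of which 1.01% passed). In the Il7r/Gdf15 state the log2 difference between knockout and PRMT1FL mice was lower than elsewhere by -0.68 for Tmem119, -0.56 for Selplg, -0.43 for Sparc, -0.43 for Olfml3, -0.4 for Cst3 and -0.2 for Cx3cr1. For Fcrls it was higher there, by 0.43. In the Gpnmb/Apoc1 state, where 0.139% of genes passed, that of Crybb1 was lower by -0.53: Crybb1 was at 40.3 and 44.2 CPM in PRMT1FL mice and at 39.8 and 38.2 CPM in knockout mice of that state. Not all of these 8 differences still passed when either PRMT1FL mouse was left out. The share of all tests that passed in those fits is not given here.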

How the results depend on the processing

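Over all microglia 1 of the 10 genes was called, against 3 with DESeq2, 3 with no filter on low counts, 2 with all cells and 0 to 3 when each mouse was left out. For the other homeostatic genes 1 call became 5 with DESeq2, 5 without the filter, 2 with all cells and 0 to 10 without a mouse, and for the activation genes 0 became 10, 10, 2 and 0 to 10. The calls over all genes moved from 86 to 705 with DESeq2, 1574 without the filter, 749 with all cells, 53 without doublets, 4 without either PRMT1FL mouse, 2707 without knockout mouse 1 and 1074 without knockout mouse 2. Crybb1 and Cst3 were called without knockout mouse 1 (edgeR adjusted p = 0.00144 and 0.00882) and without knockout mouse 2 (0.000112 and 0.0204). Same-numbered mice deviated together only weakly (r = 0.16 over 13853 genes), with 2 pairs and no label that ties them. Their microglia were close in median depth, at 6233.5 (PRMT1FL) and 6291 UMIs (knockout) for mouse 1 and at 7080 and 6979.5 UMIs for mouse 2. Whether they share more than a number cannot be told from 2 pairs. With the replicate block 2 of the 10 genes were called (Cx3cr1 and Crybb1), 2 other homeostatic genes, 6 activation genes and 395 of all genes. Within states the 17 calls of the 10 genes became 8 to 25 without a mouse, the 8 in the Il7r/Gdf15 state 2 to 7, and 2 in its Hspa1b/Klf2 cluster, added after seeing the data, and the 8 differences between states 3 to 11. The sign turned for 4 genes that were not called: leaving out each mouse gave log2 fold changes of -0.15 to 0.0055 for Selplg, -0.0060 to 0.25 for Olfml3, -0.0070 to 0.15 for Ltc4s and -0.093 to 0.059 for Fcrls, which was at 0.031 with all cells. Over the 4 activation bins the mean log2 difference of Cx3cr1 was -0.90 (-0.96 to -0.83 without a mouse), and the median of the other 9 genes 0.18 (0.041 to 0.30). The Cx3cr1 share differed by -16.9 points when thinned to 1000 UMIs and -4.67 unthinned, and the median of the other 9 by 0.726 unthinned. Of the 5 genes most like the 10, 3 to 4 were kept without a mouse and 2 at the higher resolution, and for Cx3cr1 1 to 2 of 3 and 1. Where not stated above, the cause was not tested. The number of mice, 2 a genotype, limits all tests.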
